A study of Saccharomyces cerevisiae with 13 samples.

Results

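PRY1 (YJL079C), PRY2 (YKR013W) and PRY3 (YJL078C) make up the PRY family of budding yeast, and the 3 genes were taken by their systematic names from the 6205 yeast genes on the array. They were chosen by measured values of these arrays, the level of PRY1 against the reference and at the arrest, so levels and arrest values of the family are given below as descriptions without a test. The cells were of the W303 background and are labelled yox1yhp1 mutant. Alpha factor, a mating pheromone, arrested them in G1, and they were then moved to YEPD, a rich medium. RNA was taken every 10 min from 0 min, the arrest, to 120 min, a span that the labels describe as 2 cell cycles. The reference was RNA of an asynchronous wild-type culture grown overnight in YEPD. There was 1 two-colour array for each of the 13 time points, with the sample in Cy5 and the reference in Cy3, so the design had no replicates and no dye swap, and all arrays followed 1 culture. Errors below measure how far the arrays scattered around a fitted curve and do not cover the spread between cultures. The number of arrays limits the precision.

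Pry proteins belong to the CAP superfamily, named after cysteine-rich secretory proteins, antigen 5 and pathogenesis-related 1 proteins, which is found from plants to mammals. PRY1 and PRY2 encode secreted proteins that bind sterols and are needed to export acetylated sterols from the cell, a route in which the acetyltransferase Atf2 adds the acetyl group and the deacetylase Say1 removes it. PRY3 encodes a relative that is attached to the cell wall and affects mating. Its full-length transcript is known to be made in daughter cells, and in cells treated with alpha factor Ste12 is known to repress that transcript while a shorter one is made. YOX1 and YHP1, the genes named in the label, encode homeodomain repressors known for confining certain genes to the time between mitosis and G1.

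All values are ratios of the sample over the reference, deposited as logarithms. The base was read as 10, which was inferred: 18 values on the table sit at exactly 2 or -2, which is 100-fold in base 10 and 4-fold in base 2. A ratio compares a gene with itself in the reference, so ratios of different genes do not rank the amounts of their RNA. Each array had values for 6065 to 6176 genes, and the fits took the 6151 that had 10 or more of 13. As a check of the arrest, 21 of 23 pheromone-induced genes were higher on the 0 min array than on the later arrays (adjusted p below the threshold of 0.05, limma), where 1.38% of all genes were. As a check of the label, YHP1 was below the reference on 13 of 13 arrays, but YOX1 on 10 of 13, so 1 of the genes named in the label was not evenly low. The mean log10 ratio of YOX1 after release was -0.095 ± 0.027 (SE), and it passed the cycle test described below (2.57-fold, adjusted p = 0.0111, limma). The cells are therefore called by their label only. Which mutations these are was not stated in the labels, nor was the stretch of PRY3 on the array, so its long and short transcripts cannot be told apart.

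PRY1 was above the reference on every array, less so at the arrest, where it was in place 168 of 6109 genes from the top, than after release. Its ratio was 1.67 at 0 min, 4.62 at 10 min, 4.23 at 20 min, 5.30 at 30 min, 7.42 at 40 min, 13.3 at 50 min and 12.1 at 60 min. In the later part of the course it was 7.58 at 70 min, 3.41 at 80 min, 4.81 at 90 min, 7.79 at 100 min, 9.23 at 110 min and 12.3 at 120 min. The arrest array was thus the lowest of the 13, and after release the ratio never came back to its arrest value, even at the low point of 80 min. PRY1 was above the reference on 13 of 13 arrays, as were 11% of the 5674 genes with a value on every array. Over the 12 arrays after release the mean log10 ratio was 0.84 ± 0.017 (SE), which is 6.99-fold above the reference, the second highest of 6151 genes. Only YIL082W-A, a reading frame of the Ty3 retrotransposon, had a higher mean (9.41-fold), and the next genes were the other Ty3 frame YIL082W (5.53-fold) and ARG1, an arginine synthesis gene (3.65-fold). On the 50, 100 and 110 min arrays PRY1 had the highest ratio among the genes tested, with values at the limit of 2 or -2 left out.

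**Figure D1:**
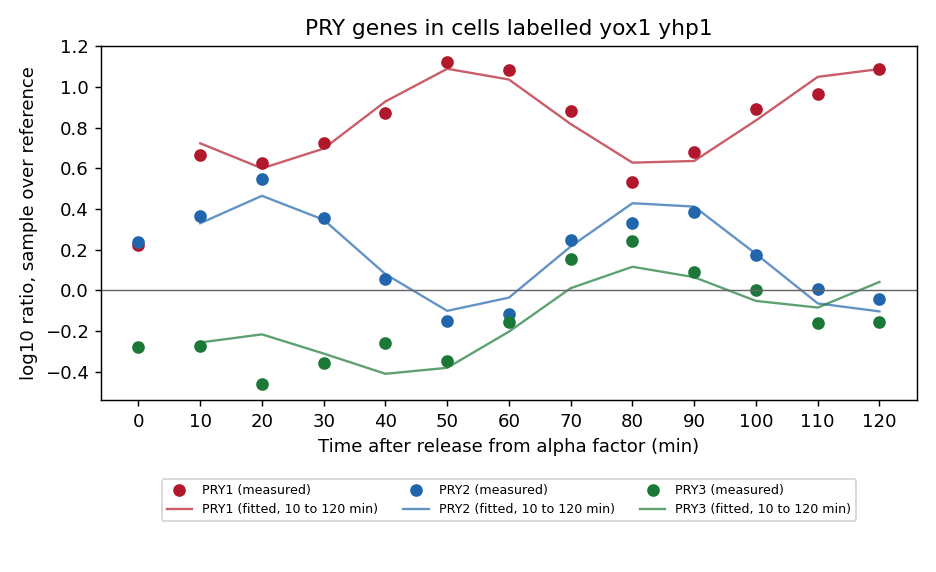
Log10 ratio of sample over reference (y axis) against minutes after release (x axis) for PRY1, PRY2 and PRY3. Points are single arrays and lines are the fitted curves on the 12 arrays of 10 to 120 min. PRY1 sits between 0.53 and 1.12 after release, high when PRY2 is low, and PRY3 is below 0 until 60 min.

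PRY2 moved from above the reference to below it and back. Its ratio was 1.73 at 0 min, 2.32 at 10 min, 3.54 at 20 min, 2.26 at 30 min, 1.14 at 40 min, 0.705 at 50 min and 0.765 at 60 min. It was then 1.76 at 70 min, 2.14 at 80 min, 2.42 at 90 min, 1.48 at 100 min, 1.01 at 110 min and 0.910 at 120 min. Ratios above 2 thus occurred on 2 separate stretches, 10 to 30 min and 80 to 90 min, and the arrays of 50, 60 and 120 min were below the reference. It was above the reference on 10 of 13 arrays. The mean log10 ratio after release was 0.18 ± 0.017 (SE), or 1.51-fold, in place 157 of 6151 genes from the top.

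PRY3, in contrast, was mostly below the reference. Its ratio was 0.525 at 0 min, 0.531 at 10 min, 0.345 at 20 min, 0.438 at 30 min, 0.552 at 40 min, 0.449 at 50 min and 0.695 at 60 min. It was 1.43 at 70 min, 1.74 at 80 min, 1.22 at 90 min, level with the reference at 100 min, 0.692 at 110 min and 0.701 at 120 min. Values above the reference thus came at 70 to 90 min, after a run of 7 arrays below it. The mean log10 ratio after release was -0.14 ± 0.034 (SE), in place 434 of 6151 from the bottom. The order of the family by its ratio to the reference was PRY1, PRY2, PRY3. PRY1 was above PRY3 on 13 of 13 arrays and above PRY2 on 12, the exception being 0 min, where their ratios of 1.67 and 1.73 were nearly the same. PRY2 was above PRY3 on 13 of 13, with the narrowest gap, 0.042 log10 units, on the array of 60 min.

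**Figure D2:**
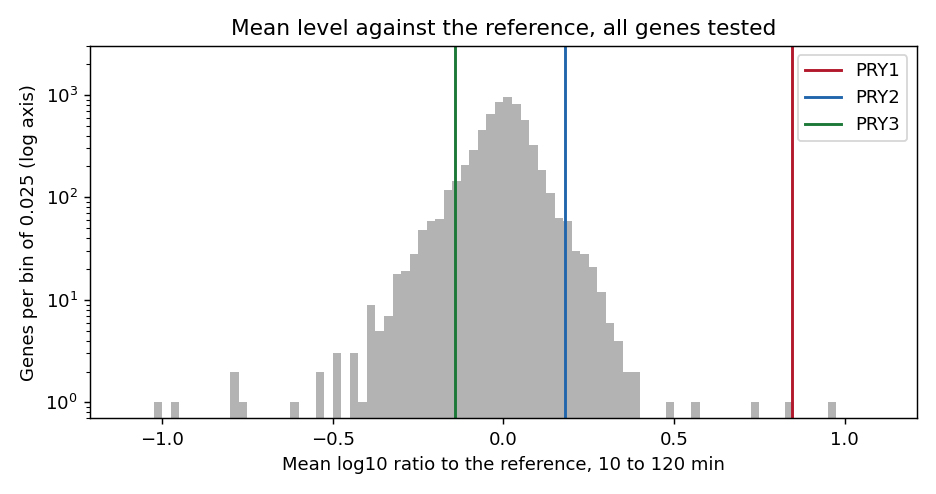
Number of genes (y axis, log scale) by mean log10 ratio to the reference over 10 to 120 min (x axis, bins of 0.025) for 6151 genes, with vertical lines at PRY1, PRY2 and PRY3. PRY1, at 0.84, stands outside the bulk of the distribution, and PRY2 (0.18) and PRY3 (-0.14) lie on its flanks.

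At the arrest the 3 genes differed in how far they were from their later values. PRY1 at 0 min differed from the mean of the later arrays by -0.62 ± 0.060 log10 units (SE), that is 4.19-fold lower, which put it in place 10 of 6109 genes from the bottom. This distance chose the family and is a description. PRY2 differed by 0.060 ± 0.061 log10 units and PRY3 by -0.14 ± 0.20, so each lay less than 1 SE from its later mean. At 10 min PRY1 was 2.77-fold higher than at 0 min, in place 86 of 6065 genes from the top, while PRY2 was 1.34-fold and PRY3 1.01-fold higher. Over all genes 115 (1.88%) were lower at the arrest in the limma fit. The pheromone-induced genes went the other way, such as AGA1, an agglutinin subunit (32.7-fold higher at the arrest, adjusted p = 0.00261, limma), and PRM1, a membrane fusion protein (20.0-fold, adjusted p = 4.8e-07).

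The next comparison asked whether the 3 genes followed the cell cycle. It used the 12 arrays after release only, because the arrest value had been used to choose the family, and a cosine and sine of 64 min, the period that best fitted the mean of 29 G1/S genes. PRY1 and PRY2 passed the test (moderated F test of limma, adjusted over 6151 genes), and PRY3 did not, where 15.6% of all genes passed. PRY1 had an adjusted p of 0.000141 and a fitted peak 3.14-fold above its trough (95% interval 2.45 to 4.04), with the peak at 52.7 ± 1.02 min (SE). PRY2 had an adjusted p of 0.000118 and a swing of 3.71-fold (2.88 to 4.79), with the peak at 20.4 ± 0.907 min. PRY3 had an adjusted p of 0.0633, a fitted swing of 2.28-fold (1.38 to 3.75), its fitted peak being at 14.3 ± 2.82 min. Among the 958 genes past the test, PRY2 had place 44 and PRY1 place 68 by size of the swing, against a median swing of 1.55-fold.

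The 2 calls differed in whether they held when the arrest array was added to the curve. PRY2 passed under all 22 alternatives run (adjusted p from 2.55e-05 to 0.00256, limma). PRY1 passed under 21 of 22, and lost its call when the 0 min array entered the curve (adjusted p = 0.176, swing 2.27-fold), on which its ratio was the lowest of all. PRY3 passed with robust regression (adjusted p = 0.00167, limma), when the period was 5 min longer (0.0226), and when the array of 20 min (0.0116), 40 min (0.0475) or 120 min (0.0293) was left out. It reached 0.682 with no linear time term, so its call depends on the curve fitted.

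PRY1 and PRY2 ran opposite to each other. Their fitted peaks lay -31.8 min apart (PRY1 minus PRY2, 95% interval -34.7 to -28.8), nearly as far as a cycle of 64 min permits, and over the 12 arrays after release their log10 ratios correlated with r = -0.92. That r describes 12 arrays of 1 culture that share the reference. At 50 min PRY1 was at its highest and PRY2 at its lowest. At 80 min PRY1 was 2.22-fold lower than at 70 min, in place 13 of 6049 genes from the bottom for that step. At 40 min PRY2 was 1.99-fold lower than at 30 min, in place 15 of 6097. PRY3, which did not pass the test, had its fitted peak 6.11 min before PRY2 (95% interval of the distance -1.26 to 13.5 min). That interval holds 0, but the measured values did not run together in the first cycle. At 20 min PRY2 was at its highest and PRY3 at its lowest of the 13 arrays. Over the 12 arrays after release the r of PRY3 with PRY2 was 0.064 and with PRY1 -0.19.

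**Figure D3:**
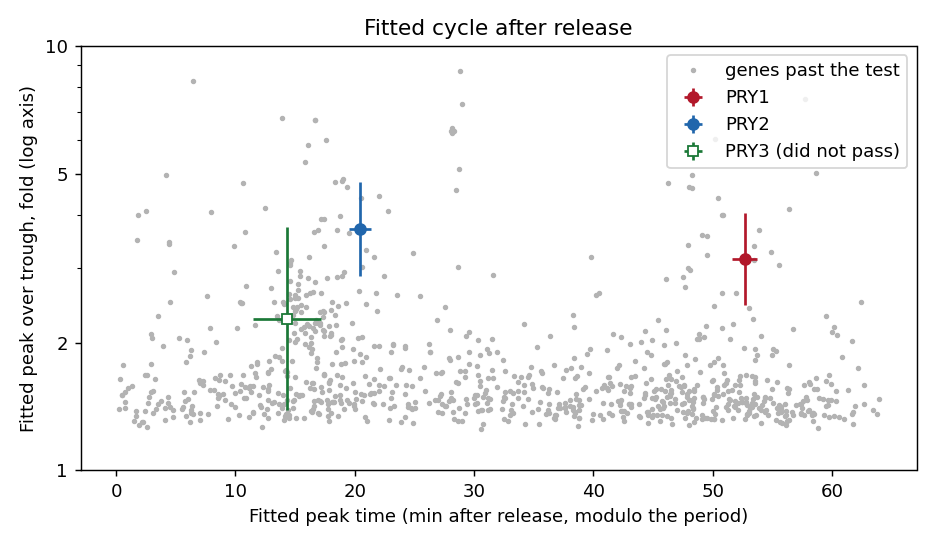
Fitted peak over trough in fold (y axis, log scale) against fitted peak time in min (x axis) for the 958 genes past the test (grey) and the PRY genes, with SE of the peak time and 95% intervals of the fold as bars. PRY2 at 20.4 min and PRY1 at 52.7 min stand on opposite sides of the cycle, and PRY3, drawn open, did not pass.

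The peak of PRY2 lay among those of G1/S genes, which the factors SBF and MBF switch on. Of the 29 measured, 27 passed the test for a cycle, with peaks from 9.90 to 27.6 min and a median of 18.5 min. The period was fitted on the mean of these genes, so their count is no independent result. Within the 95% interval of the PRY1 peak lay the peaks of 83 of the 958 genes, and within that of the PRY2 peak those of 68.

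The time points of 70 to 120 min were set against those of 10 to 60 min, 60 min earlier, to see whether each profile recurred. For PRY1 the log10 ratio averaged 0.840 in the second cycle and 0.849 in the first, and 3 of 6 matched times were higher in the second. Its profile over the 6 matched times correlated with r = 0.81, and its range was 0.56 log10 units in the second cycle and 0.50 in the first. PRY2 had means of 0.18 in both cycles and r = 0.92, but a narrower range in the second, 0.43 log10 units in the second cycle and 0.70 in the first. PRY3 had another pattern. It was higher in the second cycle at 6 of 6 matched times, as were 4.7% of 5697 genes, with a mean log10 ratio of 0.028 in the second cycle and -0.31 in the first, and r was -0.62. The difference of 0.34 log10 units, or 2.18-fold, was in place 8 of these 5697 genes from the top. In the first cycle PRY3 was below the reference on all 6 arrays, as were 19.8% of genes. These are values without a test.

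**Figure D4:**
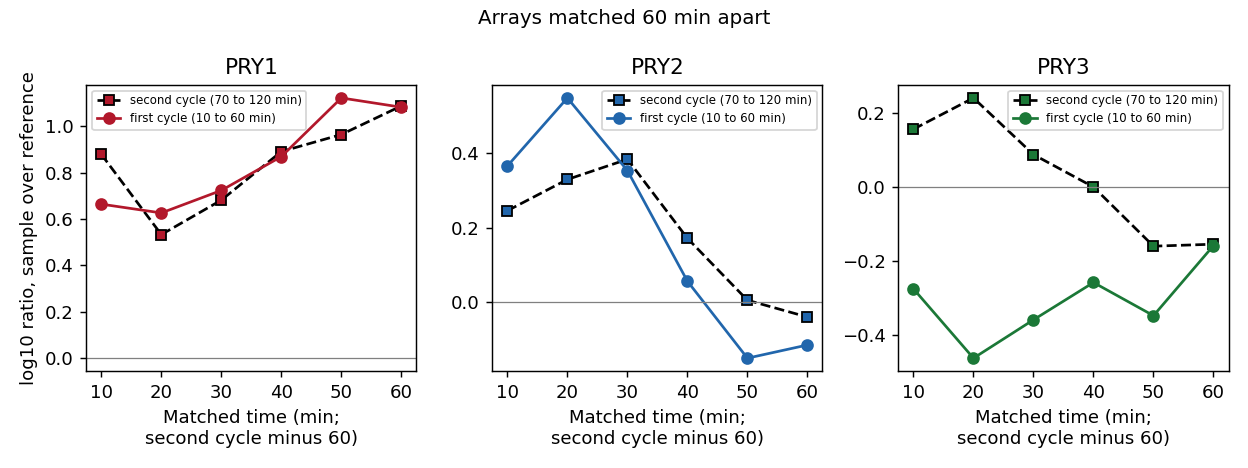
Log10 ratio (y axis) at matched times (x axis, min, with 60 min subtracted for the second cycle) in 3 panels for PRY1, PRY2 and PRY3. Squares are arrays of 70 to 120 min and circles those of 10 to 60 min. For PRY1 and for PRY2 the squares lie above the circles at some times and below them at others, and for PRY3 each square lies above its circle.

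The same kind of shift was looked for in 8 measured genes of daughter cells and cell separation, with which the full-length PRY3 transcript shares its known place of expression. In 3 of the 8 the ratio was higher in the second cycle at 6 of 6 times, as in 4.7% of all genes. These were DSE2, a wall-degrading enzyme gene (0.86 log10 units), DSE1 (0.51), a gene of daughter cells, and the glucanase gene SCW11 (0.45). The median difference of the list was 0.44 log10 units, against 0.00019 over all genes. At the level of the mean, 6 of the 8 were below the reference and 0 above (also 0 at an unadjusted p under 0.05), where 32.3% and 34% of all genes were (limma, adjusted p below 0.05). Of the 8, 4 passed the test for a cycle, where 15.6% of all genes did. They were EGT2, a cell separation gene (8.24-fold), DSE2 (5.84-fold), DSE3 (4.97-fold) and the mating-type switching repressor ASH1 (3.49-fold). Their fitted peaks lay from 1.71 to 16.1 min. Between the 2 cycles, r was -0.22 for EGT2, -0.67 for DSE2, -0.13 for DSE3 and 0.39 for ASH1. The profiles of EGT2, DSE2 and DSE3 thus did not recur, although the fitted curve passed.

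PRY1 and PRY3 lie side by side on the left arm of chromosome X, both on the Crick strand as their names say, with 0 genes between them in the annotation of assembly R64. PRY2 lies on chromosome XI. The mean ratios of the neighbours after release are set beside that of PRY1, and an effect of the region was not tested. SCP160, an RNA-binding protein gene and the neighbour on the side of PRY1, had a mean ratio of 0.997 (adjusted p = 0.914, limma). ARP4, beyond it, which encodes an actin-related protein of chromatin complexes, was lower at 0.887 (adjusted p = 2e-04). On the other side, past PRY3, ICS3 was 1.40-fold above the reference (adjusted p = 9.33e-08, limma), and NET1, a nucleolar protein gene, was slightly lower at 0.941 (0.0430).

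The log10 ratio of ICS3, which has PRY3 between it and PRY1, correlated with that of PRY1 with r = 0.71 over the 12 arrays after release, and with 0.85 when the 0 min array, used to choose the family, was added. Over the 12 arrays r with PRY1 was -0.76 for SCP160, 0.57 for NET1 and 0.53 for ARP4. The values of ICS3 ran from -0.13 at 0 min to 0.22, and at the arrest it was lower, with a difference of -0.28 ± 0.041 log10 units (SE, adjusted p = 0.00171, limma). After release its cycle did not pass (adjusted p = 0.0742), and its fitted peak was at 54.4 ± 2.95 min (SE). PRY3 itself had r = -0.013 with PRY1 over 13 arrays. Beside PRY2, the rows YKR012C, FPT1 (YKR011C, fitted on 10 values), YPT52, a Rab GTPase gene, and YKR015C had mean ratios from 0.853 to 1.10, and YKR015C passed the test for a cycle (1.40-fold, adjusted p = 0.0437, limma).

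**Figure D5:**
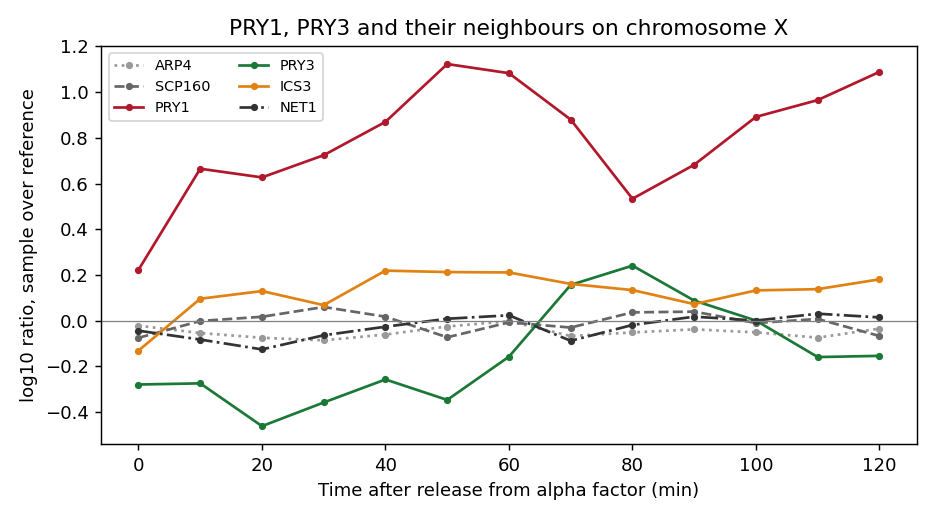
Log10 ratio of sample over reference (y axis) against minutes after release (x axis) for PRY1, PRY3 and the nearest 2 genes on each side on chromosome X. PRY1 is above all others on 13 arrays, ICS3 runs between -0.13 and 0.22, and ARP4, SCP160 and NET1 remain between -0.13 and 0.06.

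The genes whose profile was most like each member were taken by r over the 13 arrays among 5673 other genes with all values. For PRY1 this r includes the 0 min value that chose the family, so r over the 12 arrays after release is given too. The genes were YML119W (r = 0.91 over 13 arrays and 0.91 over 12), HST3 (0.91 and 0.87), a histone deacetylase gene, OSW7 (0.91 and 0.83), MMR1 (0.91 and 0.93), which links mitochondria to transport into the bud, MYO1 (0.90 and 0.82), the myosin of the cytokinesis ring, and YHL026C (0.90 and 0.95). Their fitted peaks lay from 47.6 to 50.7 min, which the choice by r largely fixes. Their mean log10 ratios ran from 0.0014 (MMR1) to 0.20 (YHL026C), beside 0.84 for PRY1, the value that chose it. The profiles most opposite to PRY1 were those of CHS3, the catalytic chitin synthase of the lateral wall (r = -0.93 over 13 arrays and -0.88 over 12), YCL074W (-0.90 and -0.82) and COQ6, a ubiquinone synthesis gene (-0.87 and -0.81).

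For PRY2 the likeness was closer. The genes most like it included LPP1, a lipid phosphatase (r = 0.965), POL2, the catalytic subunit of DNA polymerase epsilon (0.958), ERP3, a p24 family protein of vesicle transport (0.957), CSI2 (0.954) and RDH54 (0.951), a gene of recombination. Their fitted peaks lay from 18.9 to 20.9 min, which likewise follows from the choice, and r over the 12 arrays was 0.960 to 0.983. The most opposite were SPO12, a mitotic exit gene (r = -0.964), RAD23 of nucleotide excision repair (-0.964) and PMA2, a plasma membrane proton pump (-0.952).

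For PRY3 the 6 were RME1, a repressor of meiosis (r = 0.92), CPP1 (0.91), HPF1, a wall mannoprotein gene (0.91), DSE2 (0.89), HO, the mating-type switching endonuclease (0.89), and DSE1 (0.88). Over the 12 arrays after release r was 0.89 (HO) to 0.96 (DSE1). VTC4 of polyphosphate synthesis (r = -0.92), SHM2, a serine hydroxymethyltransferase gene (-0.89), and YJL022W (-0.88) were most opposite.

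The sterol genes had swings near those of all genes. Of 28 genes of sterol acetylation, storage and transport, 2 passed the test for a cycle, OSH2, an oxysterol-binding protein gene (1.40-fold, adjusted p = 0.0166, limma), and LAM1, a sterol transfer protein gene (1.47-fold, 0.0221), where 15.6% of all genes passed, and the median fitted swing was 1.20-fold, against 1.19-fold over all genes. The acetyltransferase gene ATF2 had a fitted peak 1.46-fold above its trough, at 53.4 ± 2.83 min (SE), and did not pass (adjusted p = 0.0630, limma), and the deacetylase gene SAY1 had an adjusted p of 0.604. Against the reference 8 of the 28 were higher and 12 lower, where 34% and 32.3% of all genes were, with mean log10 ratios from -0.18 to 0.11, so the whole list stayed below the mean ratio of PRY2. At the arrest 0 of the 28 differed from the later arrays by the limma test, where 1.38% of all genes were higher and 1.88% lower, so a count of 0 says nothing about the list, and at an unadjusted p under 0.05 4 were higher and 1 lower.

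Among 29 genes of other secreted and wall proteins, 17 passed the test for a cycle, where 15.6% of all genes did, and their peaks were spread from 3.53 to 60.0 min. The widest swings were those of the wall transglycosylase gene CRH1 (4.85-fold, fitted on 12 values), the mannoprotein gene CWP1 (3.25-fold), GAS3 (3.18-fold), of the glucan remodelling family of GAS1, and UTH1 (3.04-fold), so the swings of PRY1 and PRY2 lay among the widest of that list. Against the reference 18 of the 29 were higher and 5 lower, where 34% and 32.3% of all genes were. The highest, SED1, a wall glycoprotein gene, had a mean ratio of 2.17 (adjusted p = 6.31e-09, limma) and the lowest, SUN4, of 0.466 (5.1e-07), both far from the 6.99 of PRY1. At the arrest 3 of the 29 were lower than later, where 1.88% of all genes were, with CIS3, a covalently linked wall protein gene (-0.65 ± 0.092 log10 units, adjusted p = 0.00126, limma), and GAS1 (-0.35 ± 0.056, 0.00316) the most. By the same test 0 were higher. At an unadjusted p under 0.05 (limma), 3 were higher and 8 lower.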

How the data were processed

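The authors deposited 1 table of log10 ratios (Cy5 sample over Cy3 reference, dyes per the labels) with 6217 rows. The base is inferred from the values. The sources used here do not give the background correction, the normalisation or the reason for the limit at 2 and -2, and dye bias would enter every ratio. The 12 control rows were left out, values at the limit were set to missing, each array was centred on its median, and 54 genes with fewer than 10 values were dropped. Symbols came from assembly R64 by locus tag (5704 of 6205).

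Fits used limma 3.58.1 in R 4.3.3 (lmFit, eBayes). The cycle fit held an intercept, linear time, cosine, sine and a term for the 0 min array. The period was sought from 50 to 80 min. The arrest fit left out linear time. Benjamini-Hochberg adjustment ran over all genes, with a threshold of 0.05, tests were two-sided, and the test was checked on simulated data. Named genes were the 3 members, the nearest 2 genes on each side, the 6 most and 3 least alike by r, and leading genes of 5 lists. Members and lists were chosen with earlier results of these data known. The alternatives changed the arrays, linear time, period, shape, fit, centring, limit and filter. 1 gene among those most like PRY2 is not reported here.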

Additional observations from a re-analysis of the deposited data

How the results depend on the processing

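PRY2 kept its cycle call under 22 of 22 alternatives and PRY1 under 21 of 22. With all 13 arrays in the curve PRY1 had an adjusted p of 0.176 (limma). With 1 array left out at a time the adjusted p ran from 8e-05 to 0.00169 for PRY1, from 5.82e-05 to 0.00115 for PRY2 and from 0.0116 to 0.223 for PRY3. PRY3 passed with robust regression (0.00167) and a period 5 min longer (0.0226). The number of periodic genes was 958, and 309 with a second harmonic, 617 when the period was 5 min shorter, 2972 with robust regression, and 492 (without the 50 min array) to 1130 (without the 70 min array) with 1 array left out; without the 40 min array it was 563. Genes that differed at the arrest numbered 199, and 954 with robust regression, which left out genes without a 0 min value. The cause of these moves was not tested. Mean ratios and arrest differences of the 3 genes kept their sign under 13 of 13 alternatives each. Of these, 12 left out 1 later array, and none left out the 0 min array. Every later value of PRY1 lay above the reference and above its 0 min value. Its signs could therefore not change when a later array was left out, and their count says nothing. The ranges of the means were 0.819 to 0.873, 0.145 to 0.209 and -0.175 to -0.112 log10 units for PRY1, PRY2 and PRY3. For the arrest they were -0.651 to -0.597, 0.030 to 0.093 and -0.168 to -0.104. Without centring no call of the 3 genes changed. The planned search of promoter motifs was not run, because no promoter sequence was used here. Signal over background is unknown, and each gene has 1 row, so a fault of a spot would not be seen.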
